A study of Mus musculus with 4 samples.

Results

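The 53 genes described here mark the cells of the mammary gland that are not epithelial: fibroblasts and other stromal cells, blood vessel endothelium, leukocytes and adipocytes. They were taken by symbol from a list drawn up as a control for other cell types, and all 53 were found among the 24548 genes of the series' count table. By cell class, 12 are fibroblast and stromal genes, 13 endothelial, 18 leukocyte and 10 adipocyte. The study used chromatin immunoprecipitation and sequencing (ChIP-seq), which recovers the DNA bound by a protein with an antibody, here one to the forkhead transcription factor Foxp1. There were 4 groups of 1 library each: Foxp1 ChIP from basal epithelial cells, input DNA from basal cells, Foxp1 ChIP from luminal epithelial cells and input DNA from luminal cells. Input is chromatin DNA sequenced without an antibody. All cells came from mammary glands of wild-type females aged 10 to 12 weeks of a strain written FVB/N in the series' design and FBV/N in the sample labels. The sources used here do not state how the cells were sorted, how pure they were or how many animals were pooled. No library with a control antibody was analysed here, so recovery that does not depend on the antibody cannot be told apart from binding.

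The mammary ducts are a bilayer of basal, contractile cells outside and luminal cells inside, set in a pad of adipocytes and fibroblasts that is crossed by vessels and holds resident macrophages and lymphocytes. Each marker gene is listed under 1 of these classes, and most are used mainly there. Some are shared between the classes, such as Cd34, which is listed as stromal and is also found on endothelium. Mammary epithelial cells use a few of the marker genes as well, such as Thy1 in basal cells and Lpl in milk-secreting cells. Input DNA carries every gene whether or not the cell uses it, so a read count here is not an expression level. Open chromatin can be recovered more readily than closed chromatin, in ChIP and in input alike. In such bulk libraries a change in the share of cells of 1 type cannot be told apart from a change within the cells.

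Reads in the gene table numbered 3772902 for basal ChIP and 3080114 for its input, and 3163948 for luminal ChIP and 4201459 for its input. A tested gene is one with at least 40 reads over the 4 libraries, and 23128 genes met this. The reads of a gene came from a region around its start, as judged from the counts and stated by no source used here. Among long genes with another gene within 1000 bp of their start alone, the median count summed over both inputs was 80, in 686 genes. With another gene within 1000 bp of their end alone it was 403, in 659 genes, and with none within 10000 bp of either end it was 372, in 2854 genes. A value given for a gene therefore refers to that region, and reads shared with a neighbouring start may be missing from it.

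Of the 53 marker genes, 52 were tested. The exception was Cd3g, a chain of the T cell receptor complex, which had 11 reads in basal ChIP against 3 in its input and 6 in luminal ChIP against 16 in its input. Its neighbour Cd3d, another chain of that complex, lies 1338 bp away and had 16, 10, 17 and 12 reads in the same order. In the other 52 genes the counts ran from 61 to 287 in basal ChIP and from 55 to 197 in its input, and from 69 to 241 in luminal ChIP and 103 to 262 in its input. No marker gene was at 0 in any library. Another gene of the table lay within 6000 bp of 27 of the 53, and these had a median of 302 reads over both inputs, against 322.5 in the other 26.

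Promoters of 34 of the 53 genes were found in the RefSeq table (GRCm38.p6, of which mm10 is another name). Each was a window of 250 bases before to 50 after an annotated start, and some genes had several. Those of Pdgfrb, Dcn, Lum, Fap, Thy1, Mfap5, Pecam1, Vwf, Esam, Cd4, Cd79b, Ms4a1, Csf1r, Adgre1, Spi1, Cd74, Il2rb, Fabp4 and Lpl are not used here. The windows below belong to the called genes Tek, Robo4, Eng and Plin1, described further on, and to the defining markers Pdgfra, Ptprc and Adipoq. The Lipe window was added after its values were seen, because it holds the letters TGTTTAC. All are printed 5′ to 3′ on the strand of the gene, and capitals mark a forkhead heptamer, the kind of sequence that forkhead factors are known to bind. They lie at chr4:94739039-94739338 (plus strand) for Tek, chr9:37401722-37402021 (plus strand) for Robo4, chr2:32646345-32646644 (plus strand) for Eng, chr7:79732727-79733026 (minus strand) for Plin1, chr5:75152001-75152300 (plus strand) for Pdgfra, chr1:138175256-138175555 (minus strand) for Ptprc, chr16:23146286-23146585 (plus strand) for Adipoq and chr7:25390063-25390362 (minus strand) for Lipe.
Tek: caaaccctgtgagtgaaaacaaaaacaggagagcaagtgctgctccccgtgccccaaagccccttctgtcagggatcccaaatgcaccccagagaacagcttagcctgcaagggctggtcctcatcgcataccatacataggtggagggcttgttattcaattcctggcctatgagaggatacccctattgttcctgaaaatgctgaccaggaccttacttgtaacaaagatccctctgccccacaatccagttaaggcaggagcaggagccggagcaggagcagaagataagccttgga
Robo4: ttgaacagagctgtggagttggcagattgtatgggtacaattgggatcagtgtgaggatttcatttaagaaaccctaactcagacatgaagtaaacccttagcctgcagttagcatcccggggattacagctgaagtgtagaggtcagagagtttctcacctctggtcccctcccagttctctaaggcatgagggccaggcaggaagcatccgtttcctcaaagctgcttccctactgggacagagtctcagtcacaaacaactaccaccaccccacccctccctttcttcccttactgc
Eng: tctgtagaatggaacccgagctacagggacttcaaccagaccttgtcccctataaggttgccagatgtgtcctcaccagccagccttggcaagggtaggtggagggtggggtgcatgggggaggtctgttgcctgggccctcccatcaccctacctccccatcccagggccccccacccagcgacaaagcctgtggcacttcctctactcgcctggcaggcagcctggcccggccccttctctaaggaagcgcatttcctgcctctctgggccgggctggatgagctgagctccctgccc
Plin1: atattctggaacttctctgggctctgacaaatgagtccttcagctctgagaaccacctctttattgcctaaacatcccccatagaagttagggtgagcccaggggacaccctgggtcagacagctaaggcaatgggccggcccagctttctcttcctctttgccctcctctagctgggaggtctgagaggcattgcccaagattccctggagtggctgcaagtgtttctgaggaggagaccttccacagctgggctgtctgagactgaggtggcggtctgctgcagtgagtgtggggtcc
Pdgfra: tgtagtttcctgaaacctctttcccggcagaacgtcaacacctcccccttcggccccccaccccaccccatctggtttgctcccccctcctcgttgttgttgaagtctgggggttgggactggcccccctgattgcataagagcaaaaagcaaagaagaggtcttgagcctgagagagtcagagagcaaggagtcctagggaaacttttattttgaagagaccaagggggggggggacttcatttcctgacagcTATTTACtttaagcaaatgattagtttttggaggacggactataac
Ptprc: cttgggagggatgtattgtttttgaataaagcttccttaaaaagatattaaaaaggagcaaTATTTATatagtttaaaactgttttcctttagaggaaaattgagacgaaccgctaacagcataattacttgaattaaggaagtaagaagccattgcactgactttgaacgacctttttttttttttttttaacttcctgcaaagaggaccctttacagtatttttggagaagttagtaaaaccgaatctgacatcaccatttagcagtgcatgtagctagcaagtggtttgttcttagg
Adipoq: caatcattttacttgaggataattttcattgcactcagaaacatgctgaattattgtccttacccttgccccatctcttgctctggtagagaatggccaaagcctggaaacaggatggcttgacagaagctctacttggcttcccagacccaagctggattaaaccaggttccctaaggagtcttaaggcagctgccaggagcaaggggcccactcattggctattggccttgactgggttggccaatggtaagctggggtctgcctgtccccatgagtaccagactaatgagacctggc
Lipe: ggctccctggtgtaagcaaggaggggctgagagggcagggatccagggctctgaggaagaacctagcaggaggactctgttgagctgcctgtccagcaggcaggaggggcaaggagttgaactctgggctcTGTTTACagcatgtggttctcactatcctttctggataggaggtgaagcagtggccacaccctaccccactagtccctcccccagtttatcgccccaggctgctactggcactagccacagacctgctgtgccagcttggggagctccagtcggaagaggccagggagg

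The search covered both strands. Of all 32851 promoter windows in the RefSeq table, 3.65% held TGTTTAC, 4.60% held TGTTTAT and 3.04% held TATTTAC. A further heptamer, TATTTAT, stood in 5.60%, and 15.0% of windows held at least 1 of these. Of the 45 windows of the 34 marker genes, 8 windows, of 7 genes, held 1 heptamer each, so that no matches overlapped. TGTTTAC stood in a Lipe window with its first base 119 bases before the annotated start of that window. TGTTTAT stood in a Pparg window 120 bases before the annotated start there. TATTTAC began 4 bases after the annotated start in Pdgfra and stood on the opposite strand in both overlapping windows of Fcgr3. TATTTAT stood in Ptprc, Erg and, on the opposite strand, Lyz2. The heptamer windows of Lipe, Pparg and Erg lie inside the gene, and the windows nearer its 5′ end held none. Those of Fcgr3, Pdgfra and Ptprc also lie inside the annotated gene, and these genes had no window nearer its 5′ end. The windows of Tek, Robo4, Eng and Plin1 held none of these letters. These matches describe letters and not binding, and because 63.5% of the tested marker genes have a window, under the 80% set for such a check, no comparison of promoter content over the whole list is valid.

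Ratios below are of read counts scaled by TMM, which sets the library sizes so that most genes have a ratio near 1, and each has a 99% interval from the counts of both libraries. With 1 library per group there was no spread between replicates to compare with, so the intervals cover counting error only, compare libraries and not conditions, and come with no p-value. A gene was called higher or lower when it differed by at least 1.5-fold with an interval that excludes 1.

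Whether Foxp1 ChIP recovered the marker genes above input was examined first in basal cells. No marker gene of the 52 was called higher in basal ChIP over basal input, where 4.24% of all tested genes were. Lower were 2, Dcn and Tek, or 3.85%, where 4.06% of all tested genes were, which is near that background. The median log2 ratio was -0.10 over the marker genes and -0.01 over all tested genes, and 36 of 52 lay below 0. With ratios centred on olfactory receptors, sensory genes used mainly in the nose, the median of all tested genes moved to 0.20 and that of the marker genes turned to 0.11. Cd68, Fbln2 and Lipe were then called higher and none lower, and 12.9% of all tested genes were higher and 1.02% lower. The distance from the median of all genes, -0.09 on the log2 scale, does not depend on the centre. With total counts Cd79b and Plin1 were called lower as well, and 3.02% of all tested genes were higher and 5.67% lower.

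**Figure D1:**
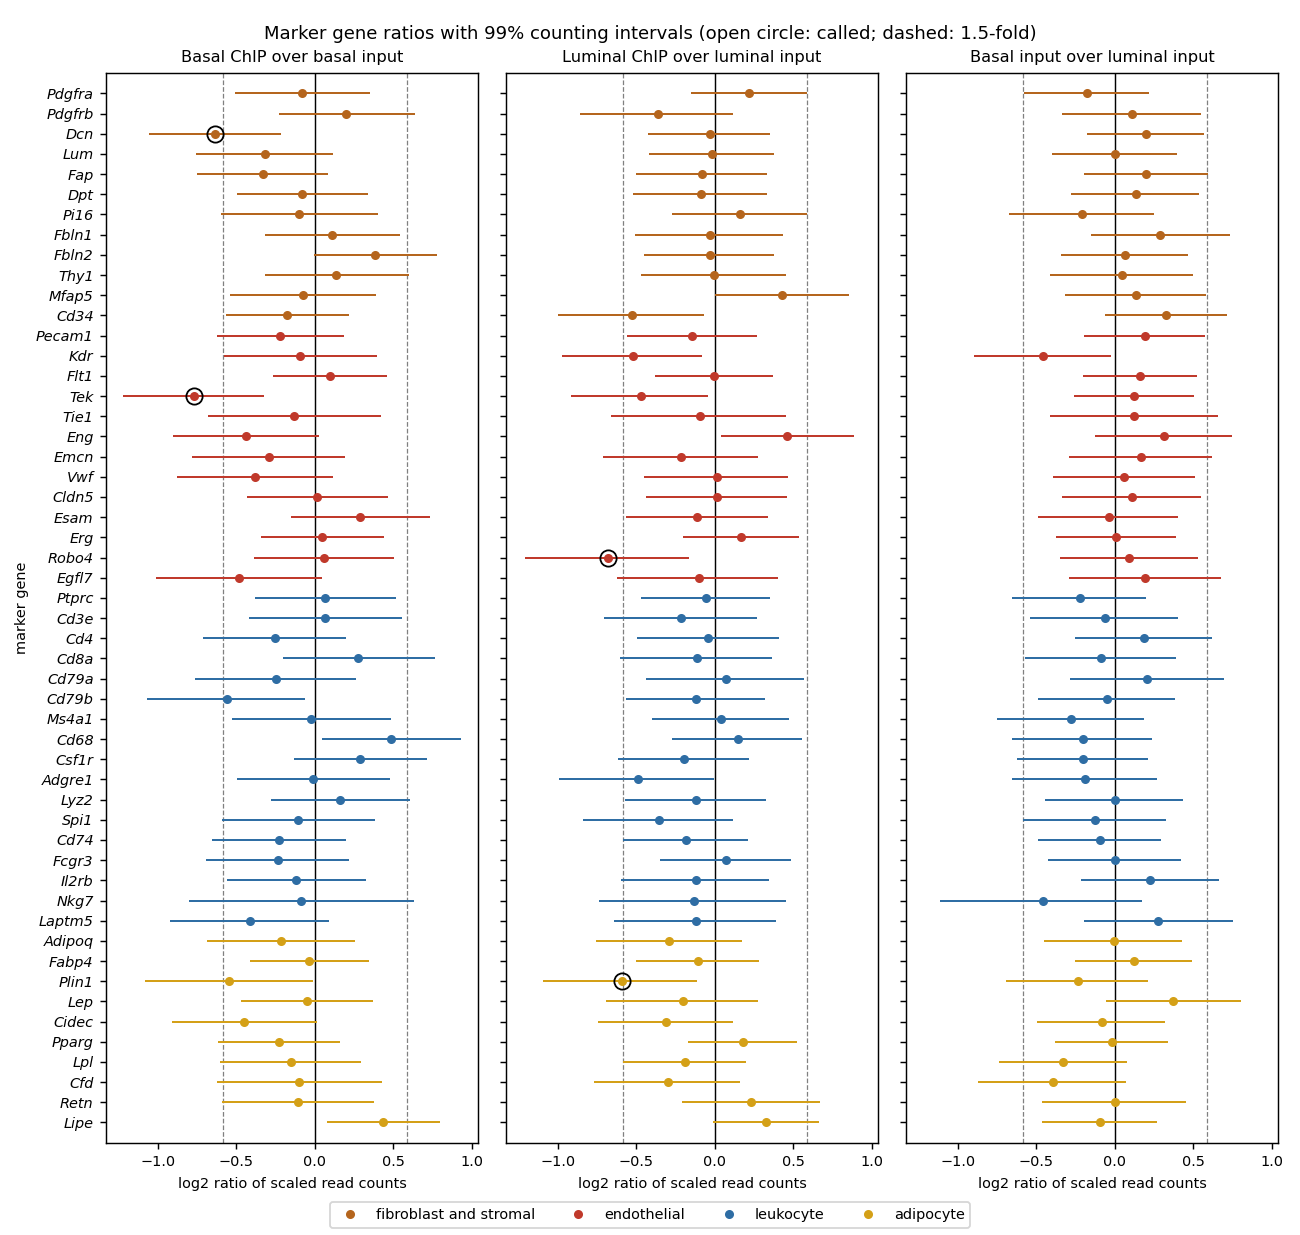
Log2 ratio of scaled read counts (x axis) of the 52 tested marker genes (y axis, coloured by cell class) in basal ChIP over basal input, luminal ChIP over luminal input and basal input over luminal input. Points are single libraries against each other, lines are 99% counting intervals, dashed lines mark 1.5-fold and open circles mark the called genes, which are Dcn and Tek on the left, Plin1 and Robo4 in the middle and none on the right.

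Tek, the angiopoietin receptor of endothelial cells (Entrez gene 21687, protein-coding, chromosome 4, 94739086 to 94874976, GRCm38), had the lowest basal ratio of the marker genes. It had 121 reads in basal ChIP against 175 in its input, and 116 in luminal ChIP against 219. As scaled RPM (reads per 1000000 of the TMM-scaled library size) these are 32.8 against 55.9 and 37.0 against 51.3, so that both ChIP libraries were below both inputs. The basal ratio was 0.587 (99% interval 0.428 to 0.800), and the luminal ratio of 0.721 (0.530 to 0.972) did not reach 1.5-fold. Another gene, Eqtn, lies 721 bp from Tek, and whether the neighbour bears on its counts was not tested. With the 2 inputs summed as the background Tek was still called lower in basal ChIP.

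Dcn encodes decorin, a small proteoglycan that fibroblasts secrete and that binds collagen (Entrez gene 13179, protein-coding, chromosome 10, 97479500 to 97518163). Its counts were 145 in basal ChIP against 191 in its input, and 163 in luminal ChIP against 227. As scaled RPM these are 39.3 against 61.0 and 52.0 against 53.2. Basal ChIP was the low library and basal input the high one, while the luminal libraries lay close together. The basal ratio was 0.644 (0.481 to 0.860) and the luminal ratio 0.977 (0.745 to 1.28). The basal call was lost when both inputs were summed as background. Lum, the neighbouring gene for the related proteoglycan lumican, had 149 reads over 158 in basal cells (log2 -0.32) and was not called.

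Among the other fibroblast and stromal genes, basal log2 ratios ran from -0.33 in Fap, a surface protease of activated fibroblasts, to 0.38 in Fbln2, a fibulin of the matrix. Fbln2 had 238 reads in ChIP over 155 in input, with an interval that reached just below no change (-0.01 to 0.78). Pdgfra, the receptor that defines fibroblasts, had 165 reads over 148 and a log2 ratio of -0.08 (-0.51 to 0.35). Pdgfrb, its paralog in pericytes and fibroblasts, had 180 over 133 (0.20), and Thy1, a surface protein, 158 over 122 (0.14). The class had a median of -0.08, with 8 of 12 genes below 0. With olfactory receptors as centre the basal medians of the 4 classes turned to 0.13, 0.083, 0.13 and 0.082 for fibroblast and stromal, endothelial, leukocyte and adipocyte genes.

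The 13 endothelial genes had a median log2 ratio of -0.13 in basal ChIP. Receptors and co-receptors for vascular growth factors lay on both sides of 0. Flt1, a VEGF receptor, had 248 reads over 197 (0.10), Kdr, the main VEGF receptor of endothelium, 128 over 116 (-0.09), and Tie1, the partner of Tek, 99 over 92 (-0.13). Eng, a co-receptor for TGF-beta ligands, had 125 over 144 (-0.44), with an interval of -0.91 to 0.02. Junction and adhesion genes included the highest of the class, Esam, with 180 over 125 (0.29), besides Pecam1 with 177 over 175 (-0.22) and Cldn5, a tight junction gene, with 157 over 132 (0.01). Erg, an ETS transcription factor of endothelium, had 207 over 170 (0.05), and Egfl7, a secreted vascular factor whose region overlaps a microRNA gene, 96 over 114 (-0.48).

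Leukocyte genes had a basal median of -0.09 over 17, with none called. The highest marker gene in basal ChIP was Cd68, a lysosomal protein of macrophages, with 196 reads in ChIP and 119 in input. Its log2 ratio of 0.48 (0.05 to 0.93) excluded no change but stayed under 1.5-fold, and the gene Eif4a1 lies 766 bp away. Other myeloid genes were Csf1r, the receptor for macrophage growth factor, with 194 over 135 (0.29), Lyz2, a lysozyme, with 170 over 129 (0.16), Adgre1, a macrophage surface receptor, with 131 over 112 (-0.01), and Spi1, a myeloid and B cell transcription factor, with 128 over 117 (-0.11). Ptprc, the CD45 phosphatase common to leukocytes, had 159 over 129 (0.07). Of the lymphoid genes, the T cell genes Cd8a and Cd3e stood at 0.28 and 0.07 and Cd4 at -0.26. Both signalling chains of the B cell receptor were below 0: Cd79a had 110 reads over 111 (-0.25), and Cd79b, the lowest of the class, had 103 over 129 (-0.56, interval -1.07 to -0.06).

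Adipocyte genes were below 0 in 9 of 10 cases in basal ChIP, where 51.6% of all tested genes were, with a median of -0.13. The exception was Lipe, hormone-sensitive lipase, with 287 reads in ChIP, 180 in input and a log2 ratio of 0.44 (0.08 to 0.80), under 1.5-fold. Another gene overlaps Lipe in the annotation, and whether it bears on the counts of Lipe was not tested. Adipoq, the gene for the hormone adiponectin, had 132 over 130 (-0.21), Fabp4, a fatty acid carrier, 214 over 186 (-0.03), and Pparg, the main transcription factor of fat cells, 191 over 190 (-0.23). The lipid droplet genes were lowest, Plin1 with 92 over 114 (-0.55, interval -1.08 to -0.01) and Cidec with 126 over 146 (-0.45). In basal ChIP the 99% interval excluded a 2-fold enrichment for 52 of 52 marker genes and a 1.5-fold enrichment for 42 (80.8%), shares that were 89.8% and 62.7% over all tested genes. These shares hold for TMM scaling and counting error alone. Cd68 came closest to 2-fold, with an upper bound of 1.91-fold. With olfactory receptors as centre, which raises all basal ratios, the upper bounds of Cd68 and Lipe passed 2-fold. The upper bounds of Cd68, Cd8a and Nkg7 passed 2-fold with the interval widened by the spread among olfactory receptors.

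The same question in luminal cells gave a similar count. No marker gene of the 52 was called higher in luminal ChIP over luminal input, where 1.5% of all tested genes were. Lower were 2, Robo4 and Plin1, or 3.85%, where 2.13% of all tested genes were. The median log2 ratio was -0.11 over the marker genes against -0.00 over all tested genes, and 38 of 52 lay below 0. Luminal intervals excluded a 2-fold enrichment for 52 of 52 marker genes and a 1.5-fold enrichment for 46 (88.5%), against 92.5% and 68.1% of all tested genes. When the interval was widened by the spread among olfactory receptors, neither Robo4 nor Plin1 was called. The luminal upper bounds of Eng and Mfap5 then passed 2-fold. With olfactory receptors as centre the marker median was -0.037, and 2.49% of all tested genes were higher and 1.31% lower.

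Robo4, a roundabout receptor of endothelial cells (Entrez gene 74144, protein-coding, chromosome 9, 37401902 to 37414023), had 163 reads in basal ChIP against 133 in its input, and 78 in luminal ChIP against 170. As scaled RPM these are 44.2 against 42.5 and 24.9 against 39.8, so that luminal ChIP stood below the other libraries. Its luminal ratio was 0.624 (0.432 to 0.891) and its basal ratio 1.04 (0.765 to 1.42). The related gene Robo3 lies 2022 bp away.

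Plin1, which encodes perilipin of the fat droplet surface (Entrez gene 103968, protein-coding, chromosome 7, 79721164 to 79732904), had 89 reads in luminal ChIP and 183 in luminal input. As scaled RPM it had 24.9 in basal ChIP against 36.4, and 28.4 in luminal ChIP against 42.9, so both ChIP libraries were low. The luminal ratio was 0.662 (0.467 to 0.926), and the basal ratio of 0.685 (0.471 to 0.991) missed 1.5-fold. The luminal call was lost with both inputs summed as background and with olfactory receptors as centre. With the inputs summed Plin1 was instead called lower in basal ChIP.

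By class, luminal medians were -0.03 for fibroblast and stromal genes, -0.10 for endothelial, -0.12 for leukocyte and -0.20 for adipocyte genes. With olfactory receptors as centre that of fibroblast and stromal genes turned to 0.035 and the others stayed below 0. The fibroblast and stromal genes spanned Cd34, a surface sialomucin also found on endothelium, with 102 reads over 200 (log2 -0.53, a ratio of 0.694 with an interval of 0.501 to 0.952), to Mfap5, a microfibril protein, with 157 over 159 (0.43, -0.00 to 0.85). Pdgfra had 195 over 228 (0.22). Endothelial genes reached 0.46 (0.04 to 0.89) in Eng, with 160 reads over 158. Kdr stood at -0.52 (-0.97 to -0.09), with 111 over 217, and Pecam1 at -0.14. In the leukocyte class the range was from Adgre1, with 91 over 174 (-0.49), to Cd68, with 152 over 187 (0.15). Ptprc stood at -0.06, Cd3e at -0.22, Cd79a at 0.07 and Csf1r at -0.20. Among adipocyte genes Lipe was again the highest, with 241 over 262 (0.32, interval -0.01 to 0.66). Pparg had 218 over 262 (0.18), Adipoq 107 over 178 (-0.29) and Fabp4 159 over 233 (-0.11).

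**Figure D2:**
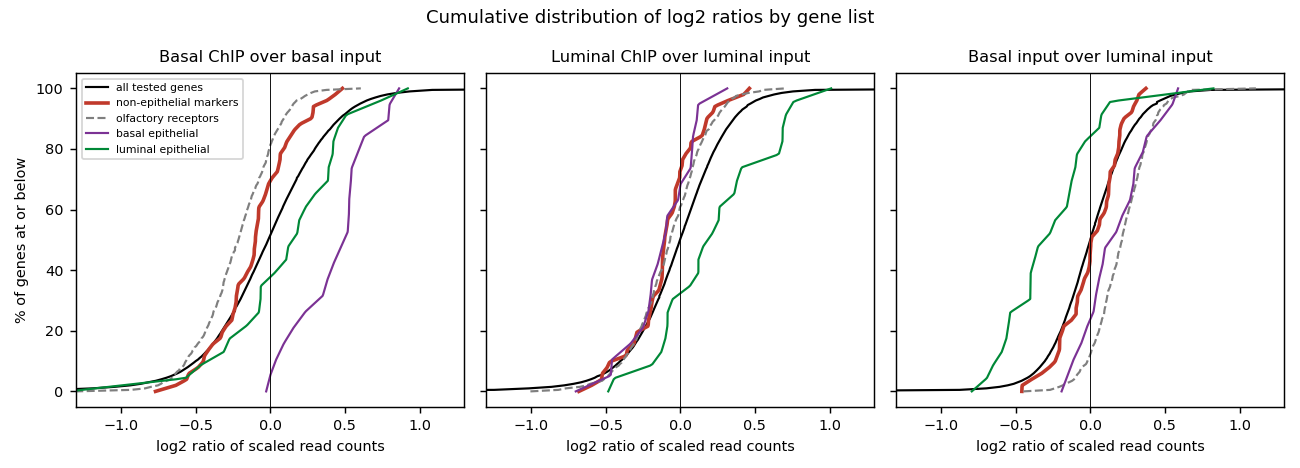
Cumulative share of genes (y axis, %) at or below each log2 ratio of scaled read counts (x axis) in the 3 comparisons, for all tested genes (black), the 52 non-epithelial marker genes (red), olfactory receptors (dashed grey) and basal (purple) and luminal (green) epithelial markers. In basal ChIP the red curve has its median at -0.10, between olfactory receptors at -0.21 and all genes at -0.01, and basal epithelial markers have theirs at 0.49.

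The lists of epithelial markers, measured in the same way, give the scale. Of 20 basal epithelial genes, basal ChIP had 5 called higher and 0 lower, and their median was 0.49. Krt14, a basal keratin gene, was among them with 390 reads in ChIP over 182 in input. In luminal ChIP the same 20 genes had 0 called higher and 1, Wnt10a, lower. Their median there was -0.11, as low as that of the non-epithelial marker genes at -0.11. Of 24 luminal epithelial genes, luminal ChIP had 5 called higher and 0 lower, and their median was 0.18. The same 24 genes had 2 called higher in basal ChIP, Cd24a and Epcam, and a median there of 0.15. The luminal calls included Gata3, a transcription factor of luminal fate, with 114 reads over 77, and Epcam, an epithelial adhesion gene, with 296 over 238 (log2 0.76). Epcam stood at 0.92 in basal ChIP, with 241 over 108. Olfactory receptors had medians of -0.21 in basal and -0.07 in luminal ChIP over 1108 genes, with 1 and 3 called higher and 90 and 31 lower. Whether the marker genes differ from these lists was not tested, as no spread between replicates was available.

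Summed over the 53 marker genes, basal ChIP had 40.4 scaled RPM per gene (95% Poisson interval 39.5 to 41.3), basal input 43.0 (42.0 to 44.0), luminal ChIP 40.3 (39.3 to 41.3) and luminal input 42.6 (41.8 to 43.5). Both ChIP libraries lay below both inputs, and the inputs overlapped each other. The log2 ratio of these sums was -0.09 in basal and -0.08 in luminal cells, and with olfactory receptors as centre it turned to 0.13 in basal and was -0.012 in luminal cells. Between the inputs the sums of each class stayed close. Fibroblast and stromal genes had 47.8 (45.6 to 50.04) in basal and 44.6 (42.8 to 46.5) in luminal input, and endothelial genes 44.8 (42.8 to 46.9) and 42.4 (40.7 to 44.1). Leukocyte genes had 36.5 (35.0 to 38.1) and 38.2 (36.8 to 39.6), and adipocyte genes 46.5 (44.1 to 48.9) and 48.5 (46.4 to 50.6). The intervals of the 2 inputs overlapped in each of the 4 classes.

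**Figure D3:**
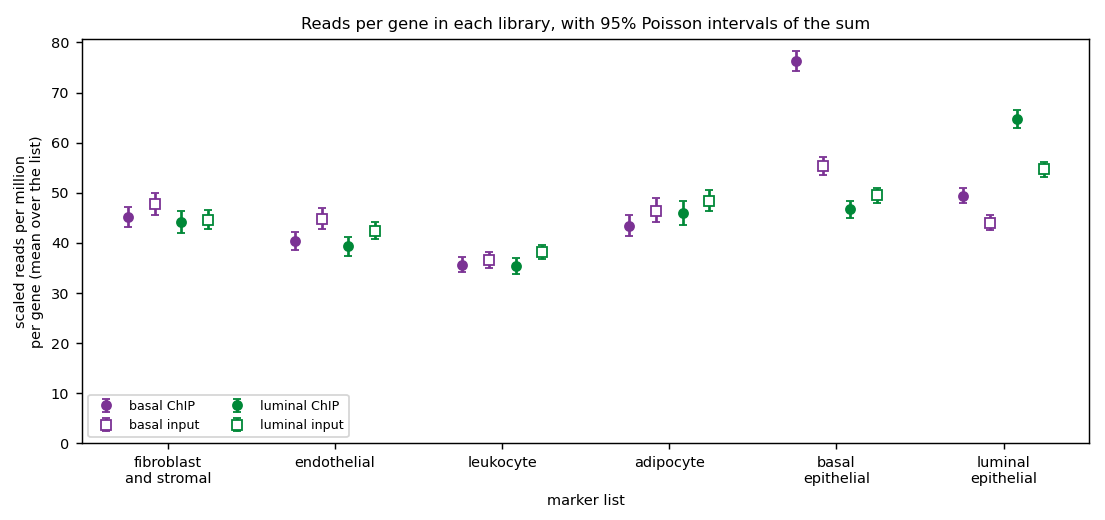
Mean scaled RPM per gene (y axis, from 0) of each marker list (x axis) in the 4 libraries, with basal in purple, luminal in green, ChIP as filled circles and input as open squares, and 95% Poisson intervals of the summed count as bars. The 4 non-epithelial classes lie within a few reads of each other across libraries, while basal epithelial genes reach 76.4 in basal ChIP and luminal epithelial genes 64.8 in luminal ChIP.

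The inputs hold no antibody signal, and were compared gene by gene to see whether the marker genes differ between basal and luminal chromatin. Basal input is also the divisor of the basal ChIP ratio, and luminal input of the luminal one, so these ratios are not independent. No marker gene was called in either direction, where 0.709% of all tested genes were higher and 0.463% lower in basal input. The median log2 ratio of basal over luminal input was 0.01, and the range was from -0.46 to 0.37. Intervals lay below no change for 2.5% of all tested genes and above it for 3.0%. Among the marker genes Kdr was the 1 gene (1.92%) whose interval excluded no change, with 116 reads in basal and 217 in luminal input (-0.46, interval -0.90 to -0.03). Nkg7, a granule gene of cytotoxic lymphocytes, also stood at -0.46, on 55 and 103 reads, with a wider interval of -1.11 to 0.17. The highest was Lep, the leptin gene, with 152 and 160 reads (0.37, -0.06 to 0.80), followed by Cd34 with 184 and 200 (0.33) and Eng with 144 and 158 (0.31). By class the medians were 0.12 for fibroblast and stromal genes, 0.12 for endothelial, -0.09 for leukocyte and -0.05 for adipocyte genes. These too turn below 0 for fibroblast and stromal (-0.09) and endothelial genes (-0.09) with olfactory receptors as centre. A second list of endothelial genes, described further on, had a median of -0.07 under TMM, with 15 of 21 below 0. Second lists of leukocyte and adipocyte genes had -0.09 and -0.04. Laptm5, a lysosomal protein of blood cells, was the highest leukocyte gene (0.28), and Cfd, the serine protease adipsin, the lowest adipocyte gene (-0.40). Pi16, a marker of some fibroblasts, was the lowest of its class (-0.21). The median was -0.21 with olfactory receptors as centre, since these were themselves higher in basal input by a median of 0.21, and Cfd, Kdr and Nkg7 were then called lower, where 0.0562% of all tested genes were higher and 3.89% lower.

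Labels were checked on the epithelial lists in the same inputs. Of 20 basal epithelial genes 1, Krt14, was called higher in basal input, with 182 reads against 165, and 15 lay above 0, with a median of 0.14. This median turned to -0.076 with olfactory receptors as centre. Of 24 luminal epithelial genes 3, Ehf, Epcam and Kit, were called higher in luminal input and 20 lay below 0, with a median of -0.31, or -0.52 with that centre. Epcam had 108 reads in basal and 238 in luminal input (log2 -0.69).

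A difference in enrichment between the cell types was measured as the basal ratio over the luminal ratio, from all 4 counts. Of the 52 marker genes 1, Robo4, was called higher in basal cells (1.92%, where 3.72% of all tested genes were) and 2, Dcn and Eng, were called higher in luminal cells (3.85%, where 4.16% were). Both shares are near or under the background. The median log2 difference was 0.01 over the marker genes and 0.00 over all tested genes. Eng (Entrez gene 13805, protein-coding, chromosome 2, 32646595 to 32682669) differed most, by -0.90 (standard error 0.24, interval -1.52 to -0.29). Its 33.9 scaled RPM in basal ChIP and 46.0 in basal input contrast with 51.0 in luminal ChIP and 37.0 in luminal input, so that the ChIP library was the lower in basal and the higher in luminal cells. The gene Fpgs overlaps Eng in the annotation. Robo4 differed by 0.73 (standard error 0.26, interval 0.06 to 1.40) and Dcn by -0.60 (standard error 0.22, interval -1.16 to -0.04). Next were Pdgfrb at 0.56 (-0.08 to 1.19) and Mfap5 at -0.50 (-1.12 to 0.11), neither called. Class medians were -0.12 for fibroblast and stromal, -0.08 for endothelial, 0.04 for leukocyte and 0.06 for adipocyte genes. With olfactory receptors as centre Csf1r and Pdgfrb were called higher in basal cells besides Robo4, Dcn was not called, and 8.68% of all tested genes were higher and 1.79% lower. No call on a difference remained when the interval was widened by the spread among olfactory receptors.

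**Figure D4:**
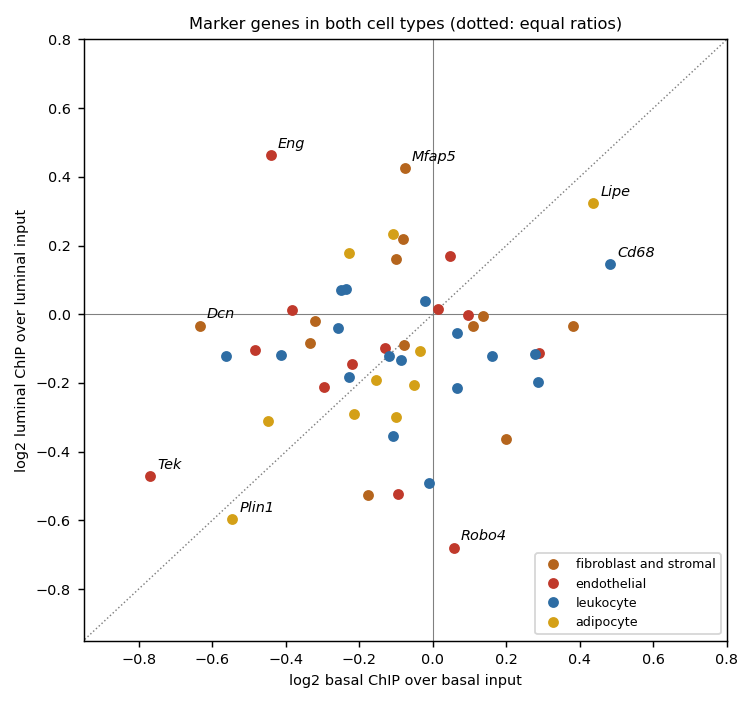
Log2 ratio of luminal ChIP over luminal input (y axis) against that of basal ChIP over basal input (x axis) for the 52 tested marker genes, coloured by cell class, with equal ratios on the dotted line. Each point compares single libraries; Eng (-0.44 and 0.46) lies far above the line, Robo4 (0.06 and -0.68) far below it, and Tek and Plin1 are low on both axes.

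Other genes of these cell classes, 94 tested genes from 5 lists that share no gene with the first, were counted in the same way. In basal ChIP 4 were called higher and 5 lower (4.26% and 5.32%, against 4.24% and 4.06% of all tested genes). In luminal ChIP none was called higher and 3 lower (3.19%, against 2.13%), and between the inputs none was called. For the difference between the cell types 2 were called higher in basal cells and 5 higher in luminal cells (2.13% and 5.32%, against 3.72% and 4.16%). The basal higher calls were 1 each from fibroblast, endothelial, leukocyte and adipocyte lists. Cebpa, a transcription factor of fat cell differentiation, had 337 reads over 152 (log2 0.91), and Gas1, a growth arrest protein of fibroblasts, 333 over 164 (0.79). Rasip1, a regulator of vessel lumen formation, had 218 over 119 (0.64) with Mamstr 100 bp away, and Tyrobp, a signalling adaptor of myeloid and natural killer cells, 136 over 75 (0.62) with Hcst 130 bp away. Lower in basal ChIP were Mmrn1, a multimerin of lymphatic vessels (-0.83), Aplnr, the apelin receptor (-0.72), Pck1, an enzyme of gluconeogenesis and glycerol synthesis (-0.69), and the adjacent integrin genes Itgam (-0.66) and Itgax (-0.63). In luminal ChIP the macrophage genes C1qb (-0.74) and Mrc1 (-0.59) and the T cell kinase gene Zap70 (-0.59) were called lower. The 10 pericyte genes had no call and basal and luminal medians of 0.14 and 0.04. The 15 other adipocyte genes had basal and luminal medians of 0.05 and 0.08, with 10 above 0 in each. Those of the adipocyte marker genes were -0.13 and -0.20. Medians of the other endothelial genes were -0.10 and -0.12, and of the other leukocyte genes -0.14 and -0.10.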

How the data were processed

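Foxp1 ChIP and input DNA of basal and luminal mammary cells were sequenced as single reads of 75 to 85 bp, per the labels' protocols. The authors deposited raw counts of reads for each gene, made with featureCounts on mm10 per the submitters' processing notes. The sources used here do not state the aligner, tool versions, counted region or treatment of duplicate reads. From these counts, TMM factors over the 4 libraries were computed on 23128 genes with at least 40 counts (edgeR 4.0.16, R 4.3.3); 1420 genes were not tested. Intervals are exact Clopper-Pearson at 99%; a difference of ratios used the 4 counts plus 0.5. PCR copies are not independent molecules, so intervals cover counting error only. Gene positions were matched for 24480 of 24548 gene IDs. Python 3.11.15 with scipy 1.17.1 was used for all other steps. The calling rule was tested on simulated data.

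No count model could be fitted with 1 library per group. Values were planned for the genes called, the extremes of each class and fixed defining markers. Other genes given with values, such as Lum, Thy1 and Flt1, were picked without a fixed rule. The marker genes and lists were chosen with earlier results of these data known. Alternatives were total counts, DESeq2 1.42.0 size factors, centring on olfactory receptors, no minimum count, a widened interval, 2-fold, 1.5-fold alone, leaving out genes with a close neighbour, and summed inputs.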

Additional observations from a re-analysis of the deposited data

Results flagged for a closer look

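The ChIP over input ratio differed between basal and luminal cells, beyond counting error and by at least 1.5-fold, for 3 of the 52 tested marker genes, 1 higher in basal cells (1.92%) and 2 higher in luminal cells (3.85%). Of all tested genes 3.72% and 4.16% were called in these directions, so the count is near or under that background. Eng, the TGF-beta co-receptor of endothelium, had a log2 difference of basal minus luminal of -0.90, with 125 and 144 reads in basal ChIP and input and 160 and 158 in luminal ChIP and input. Robo4, an endothelial guidance receptor, had a difference of 0.73, on 163 and 133 basal and 78 and 170 luminal reads. Dcn, the decorin gene of fibroblasts, had a difference of -0.60, on 145 and 191 basal and 163 and 227 luminal reads. With 1 library per group these differences were not tested against a spread between replicates. With the 2 inputs summed as background Eng and Robo4 were still called and Dcn was not. None of the 3 was called at 2-fold or with the interval widened by the spread among olfactory receptors.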

How the results depend on the processing

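The design has 1 library per group, so none could be left out. No paired analysis was possible because each group has a single library. Of 105 values under other settings, 79 stayed within the limits set for them and 26 moved; the cause was not tested unless given here. With olfactory receptors as centre, the median over marker genes was 0.11 in basal ChIP, -0.037 in luminal ChIP, -0.21 between the inputs and 0.15 for the difference; calls were 3 higher and 0 lower in basal ChIP, 1 lower in luminal ChIP, 3 lower between the inputs, and 3 higher and 1 lower for the difference. With total counts the basal median was -0.16 and 4 genes were called lower there. At 2-fold no call was left: 0 lower in basal ChIP, 0 lower in luminal ChIP, and 0 higher and 0 lower for the difference. The widened interval gave 0 lower in luminal ChIP and 0 higher and 0 lower for the difference. With summed inputs 3 were higher, with Cd34 and Pdgfrb gained, and 1 lower for the difference, where 4.05% and 3.98% of all tested genes were. Among lower calls, basal ChIP then gained Cd79b and Plin1 and lost Dcn (3.74% of all tested genes lower), and luminal ChIP gained Cd34 and lost Plin1 (2.4% lower). Leaving out genes with another gene within 6000 bp, which removes Tek, Plin1, Robo4 and Eng, left 1 lower in basal ChIP, 0 lower in luminal ChIP, and 0 higher and 1 lower for the difference, and put the median between the inputs at 0.12. A median marker gene had a 99% interval of 1.37-fold either way in basal and 1.36-fold in luminal ChIP, so smaller differences were not detectable at this depth. For the difference between the cell types it was 1.54-fold, wider than the 1.5-fold of the call. There the interval excluded a difference of 1.5-fold higher in basal cells for 21 of 52 marker genes (40.4%), against 44.9% of all tested genes.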

Other observations

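Among the fibroblast genes outside the main list, 5 of 20 had an interval above no change in basal over luminal input, although none reached the call of 1.5-fold with that interval. Of all tested genes 3.0% had such an interval. The 5 were the collagen genes Col5a2 (185 and 172 reads, log2 0.55), Col3a1 (208 and 198, 0.52) and Col6a1 (162 and 158, 0.48), the collagen cross-linking enzyme gene Loxl1 (163 and 158, 0.49) and Postn, the matrix protein periostin (227 and 237, 0.38). The list had a median of 0.27 between the inputs, against 0.12 for the 12 fibroblast and stromal marker genes, 0.14 for basal epithelial markers and 0.21 for olfactory receptors. With olfactory receptors as centre it was 0.062, and the intervals of all 5 genes then reached below no change. The list's basal and luminal ChIP ratios had medians of -0.01 and -0.10. No test across replicates was possible for these values.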
